A study of Mus musculus with 9 samples.

Results

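The genes described here are 9 of the 13192 genes in a table of RNA-seq counts from mouse heart: the adrenergic receptor genes Adrb1, Adra1a and Adra1b, the adenylyl cyclase genes Adcy5 and Adcy6, the G protein gene Gnas, the protein kinase A genes Prkaca and Prkar1a, and the phosphodiesterase gene Pde3a. They were chosen by name as adrenergic receptor and cyclic AMP signalling genes, and all 9 were in the table. The hearts came from male wild-type C57BL/6J mice. At 10 weeks of age the mice received 1e+11 viral particles of an adeno-associated virus (AAV) in the right gastrocnemius, a calf muscle, and the apex of the heart was taken 12 weeks later. AAV-Null is the control vector (4 libraries) and AAV-Osm carries oncostatin M, a cytokine of the interleukin-6 family (5 libraries). The heart was thus not the injected organ, and the labels name no promoter for the vector. Osm itself was not analysed here, so the labels have no check from the delivered gene. The study was concerned with cardiac dysfunction, muscle atrophy and fibrosis under added oncostatin M, and the comparison asked how heart transcripts differed between the vectors.

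Noradrenaline and adrenaline reach the heart through adrenergic receptors. The beta receptor couples through the stimulatory G protein, whose alpha subunit Gnas encodes, to adenylyl cyclase, which makes cyclic AMP. Cyclic AMP releases the catalytic subunits of protein kinase A from their regulatory subunits, and the kinase then phosphorylates calcium handling and sarcomere proteins. Phosphodiesterases break cyclic AMP down. Alpha-1 receptors use another route, through Gq and phospholipase C-beta. In failing hearts this system is known for loss of beta receptors and for weakened signalling downstream of them.

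Total counts ran from 11841106 (AAV-Osm 4) to 30625134 (AAV-Null 3), and library numbers are names only. No label says outright that every library came from its own mouse, so p-values reflect only how these samples vary, which may be technical. All 10 cardiomyocyte markers looked for were present, with a sum, in CPM (counts after scaling all libraries to the same size), of 87696 to 111244 in AAV-Null libraries and 89278 to 116886 in AAV-Osm libraries, which fits the labelled tissue. Some libraries stood apart in other cell type markers. The 12 liver-type transcripts summed to 283 and 230 CPM in AAV-Null 3 and 4, against 52.0 and 63.9 CPM in the other AAV-Null libraries and 59.3 to 139 CPM in AAV-Osm. The 6 epicardial and mesothelial markers summed to 136 CPM in AAV-Null 4 and to 9.97 to 54.4 CPM elsewhere. AAV-Null 1 with AAV-Null 2, and AAV-Osm 2 with AAV-Osm 3, were the most alike of the 36 pairs of libraries. Their chi-square per degree of freedom over genes was 6.52 and 9.68, above the sampling noise of repeated reads of the same library. That cannot show whether the libraries of a pair came from different mice. Each was counted as its own sample, as labelled. In bulk tissue, fewer cells of a type and less RNA per cell cannot be told apart.

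Among the 9 genes, levels per length spanned a wide range. These levels are CPM divided by the kilobases of exon counted for each gene, over all 9 libraries. Gnas was the most abundant at 124 ± 12.5 (SD, n = 9), followed by Prkaca at 113 ± 21.2 and Prkar1a at 95.2 ± 15.1. The ranges of neighbouring genes in this order overlapped; Gnas exceeded Prkaca in 6 of 9 libraries, and Prkaca exceeded Prkar1a in 7. Adcy6 stood clear of its neighbours at 34.1 ± 5.41, above Adcy5 in 9 of 9 libraries with no overlap of ranges. Adcy5 (13.1 ± 2.05) and Adrb1 (11.7 ± 1.19) overlapped, and Adra1b followed at 7.77 ± 0.880, separate from its neighbours on both sides. Pde3a (1.96 ± 0.475) and Adra1a (1.59 ± 0.301) were lowest and overlapped. Gnas lay above 95.9% of all genes in the table, and Adra1a above 28.5% of them. The counted exons of Adrb1 and Pde3a end before those of GENCODE vM21 (56724862 against 56733113 on chromosome 19, and 141499351 against 141507448 on chromosome 6). The counted exons of Gnas, 8171 bases in 18 blocks, cover a locus with several start sites, so its level per length pools them. How these points bear on the levels and order of Gnas, Adrb1 and Pde3a was not tested.

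**Figure D1:**
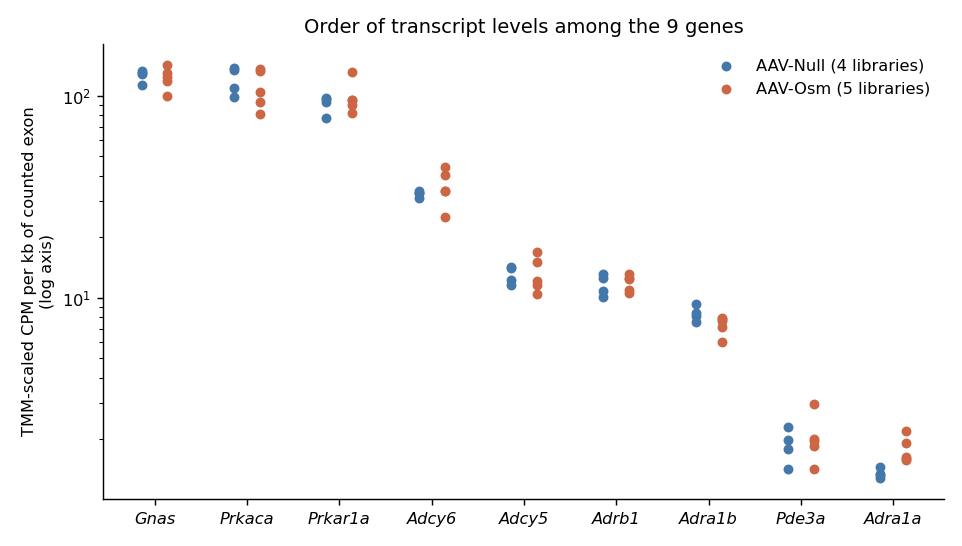
TMM-scaled CPM per kilobase of counted exon (log axis) for the 9 genes, 1 point a library, AAV-Null in blue and AAV-Osm in orange. Gnas, Prkaca and Prkar1a lie between 77.8 and 142, Adcy6 between 25.0 and 44.1, and Pde3a and Adra1a at 2.98 or less.

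None of the 9 genes passed the test between AAV-Osm and AAV-Null. With edgeR's quasi-likelihood test and p-values adjusted over all 13192 genes, 0 of the 9 had an adjusted p under 0.05, where 0.121% of all genes did (16 genes: 11 higher, 0.0834%, and 5 lower, 0.0379%). DESeq2 also called 0 of the 9, where it called 0.387% of all genes, and limma-voom with quality weights 0 of the 9, where it called 1.29%. At an unadjusted p under 0.05 in edgeR there was 1 of the 9, Adra1a, which was higher, and 5.97% of all genes (2.89% higher and 3.09% lower). It was also the only 1 of the 9 whose groups did not overlap, as 2.28% of all genes did not. The median log2 fold change of the 9 genes was 0.03, and that of all genes was 0.01. The precision of this comparison can be read from the intervals: for 8 of the 9 genes the 95% interval lay within 1.5-fold in either direction, as it did for 51.6% of all genes. Adra1a was the exception, with an upper bound of 1.67-fold. Raw counts behind these values ran from 91 to 28030 per gene and library.

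**Figure D2:**
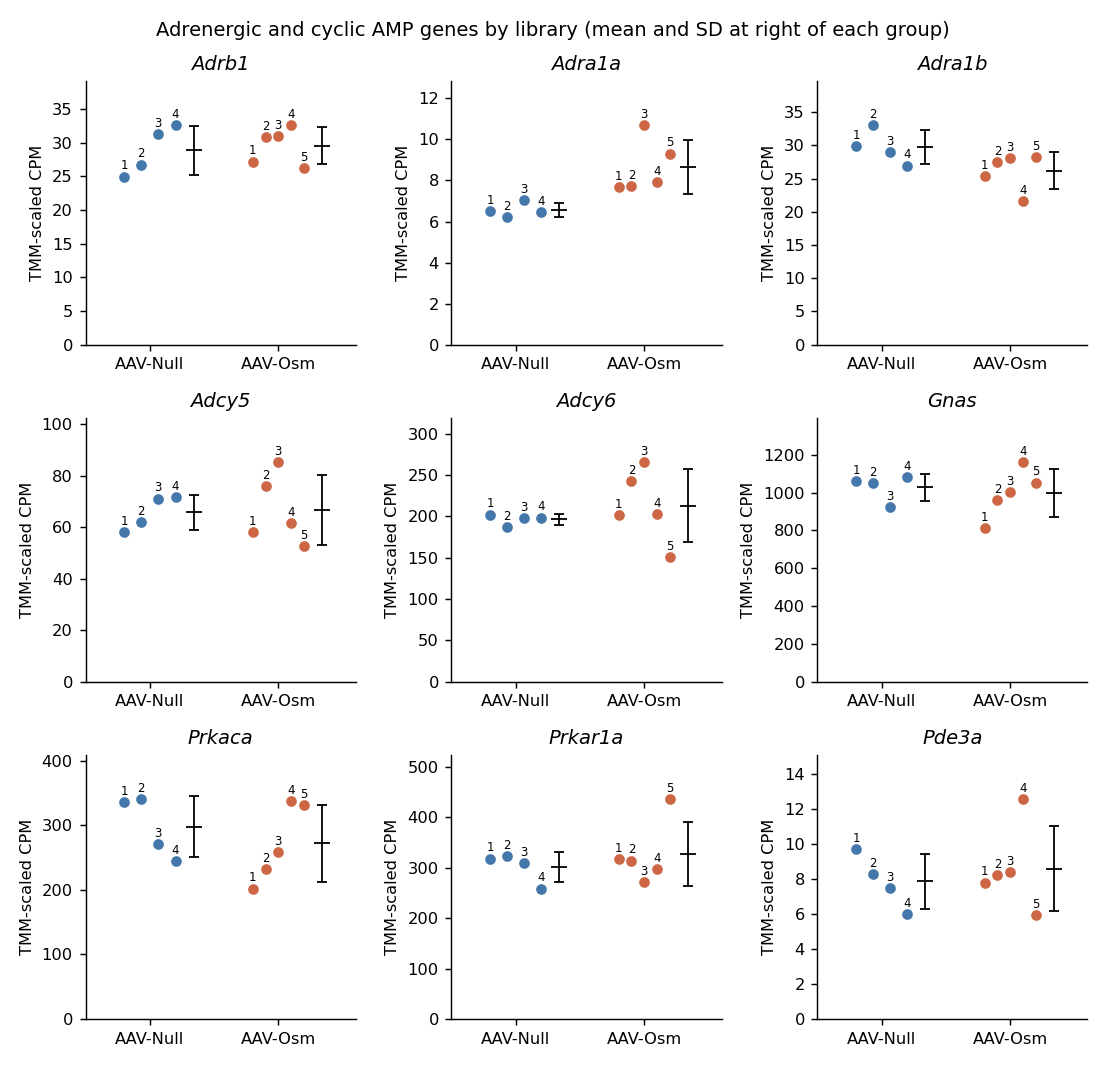
TMM-scaled CPM of each of the 9 genes in each library (points, with the library number), AAV-Null in blue and AAV-Osm in orange, and the mean with its SD in black. The groups overlap in every panel except that of Adra1a, where the AAV-Osm libraries lie at 7.69 CPM and above and the AAV-Null libraries at 7.04 CPM and below.

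Adrb1 encodes the beta-1 adrenergic receptor, the main beta receptor of heart muscle cells. It is a gene of 1 exon on chromosome 19 (56722372 to 56724862, plus strand, mm10). Its level was 25.0, 26.7, 31.3 and 32.6 CPM in AAV-Null 1 to 4 and 27.2, 30.8, 31.0, 32.6 and 26.2 CPM in AAV-Osm 1 to 5. The groups covered nearly the same range. The log2 fold change was 0.03 (SE 0.13, 95% interval -0.25 to 0.32, edgeR adjusted p = 0.989), so a loss of Adrb1 transcript below 0.84 of the AAV-Null level lay outside the interval. The beta-3 receptor gene, Adrb3, was not analysed here.

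Adra1a encodes the alpha-1A receptor (chromosome 14, 66635251 to 66771168, plus strand). It was at 6.52, 6.22, 7.04 and 6.46 CPM in AAV-Null 1 to 4 and at 7.69, 7.74, 10.7, 7.92 and 9.31 CPM in AAV-Osm 1 to 5. All 5 AAV-Osm libraries were above all 4 AAV-Null libraries, a separation that 1.05% of all genes showed in this direction. The log2 fold change was 0.40 (SE 0.16, 95% interval 0.06 to 0.74), with an edgeR unadjusted p of 0.0233 and an edgeR adjusted p of 0.740, so Adra1a was not called. Without AAV-Osm 3, the highest library, the log2 fold change was 0.32. Without AAV-Osm 3, or without AAV-Null 2, Adra1a no longer had an edgeR unadjusted p under 0.05. The same held with AAV-Null 3 and 4 both left out, and with AAV-Null 4 and AAV-Osm 5 both left out. Adra1b, the gene of the alpha-1B receptor (chromosome 11, 43774605 to 43901237, minus strand), had a change of the opposite sign. It was at 29.9, 33.1, 28.9 and 26.9 CPM in AAV-Null 1 to 4 and at 25.4, 27.5, 28.1, 21.6 and 28.2 CPM in AAV-Osm 1 to 5. AAV-Osm 4 was the lowest library and the groups overlapped (log2 fold change -0.18, SE 0.13, 95% interval -0.46 to 0.09, edgeR adjusted p = 0.934). The third alpha-1 gene, Adra1d, averaged 3.23 ± 0.354 and 2.54 ± 0.340 CPM in AAV-Null and AAV-Osm (log2 fold change -0.35, SE 0.19, edgeR adjusted p = 0.883). Among alpha-2 receptor genes, Adra2b and Adra2c were at most at 1.07 CPM in any library and had intervals reaching from -1.10 to 0.80 in all, and Adra2a was not analysed here.

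**Figure D3:**
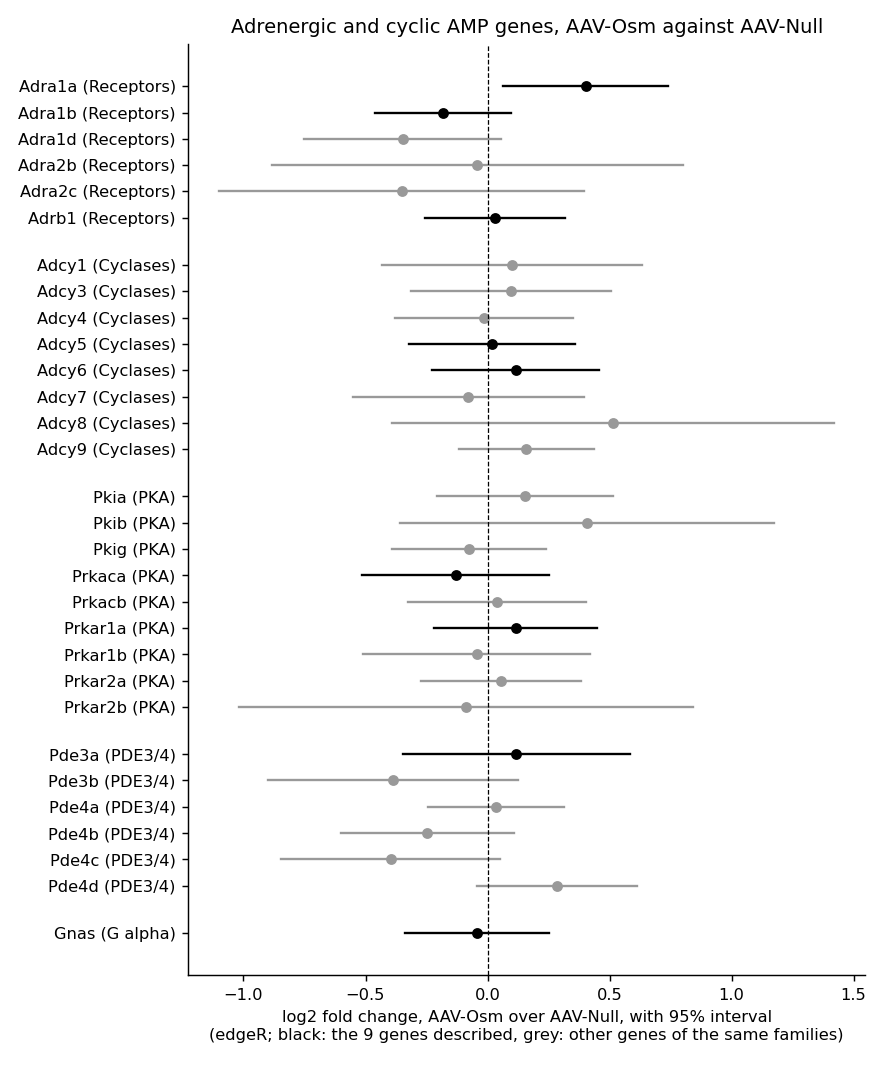
Log2 fold change of AAV-Osm over AAV-Null with its 95% interval (edgeR) for the 9 genes (black) and for other receptor, cyclase, protein kinase A and phosphodiesterase 3 and 4 genes (grey). Adra1a is the only gene shown whose interval does not include 0.

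Because Adra1a and Adra1b differed in sign, their ratio was read within each library, where scaling between libraries cancels. On the scale of CPM per kilobase, Adra1a was 0.160, 0.138, 0.178 and 0.175 of Adra1b in AAV-Null 1 to 4 and 0.222, 0.206, 0.279, 0.269 and 0.242 of it in AAV-Osm 1 to 5. The groups did not overlap. The mean ratio was 0.163 ± 0.0185 (SD, n = 4) and 0.244 ± 0.0307 (SD, n = 5), a difference of 0.58 on the log2 scale. This ratio was singled out after its values were seen, so all 36 ratios among the 9 genes were tested the same way, and it was the only 1 of the 36 whose groups did not overlap. The exact two-sided permutation test over 126 regroupings gave p = 0.00794, the smallest it can give, and an adjusted p of 0.286 over the 36 ratios; 0 of the 36 passed and 4 had an exact unadjusted p under 0.05. Those 4 ratios all held Adra1a. A single ratio at the smallest p could not pass that adjustment.

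Plcb1 encodes phospholipase C-beta 1, an enzyme that Gq activates downstream of alpha-1 receptors. It was at 5.16, 5.56, 4.28 and 4.45 CPM in AAV-Null 1 to 4 and at 8.69, 7.96, 7.43, 8.44 and 7.98 CPM in AAV-Osm 1 to 5, with no overlap, as for 1.05% of all genes in this direction. Its log2 fold change was 0.74 (SE 0.15, 95% interval 0.41 to 1.07), the smallest p of the 14 genes listed as alpha-1 and Gq effectors, but its edgeR adjusted p of 0.171 did not pass. DESeq2 (adjusted p = 0.00263) and limma-voom with quality weights (adjusted p = 0.0344) called it, as they did 0.387% and 1.29% of all genes. Limma-voom without the weights did not call Plcb1 (adjusted p = 0.155). Its adjusted p ran up to 0.473 over the alternatives. The other 13 genes of that list were not called, and the median over the list was 0.03 on the log2 scale.

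**Figure D4:**
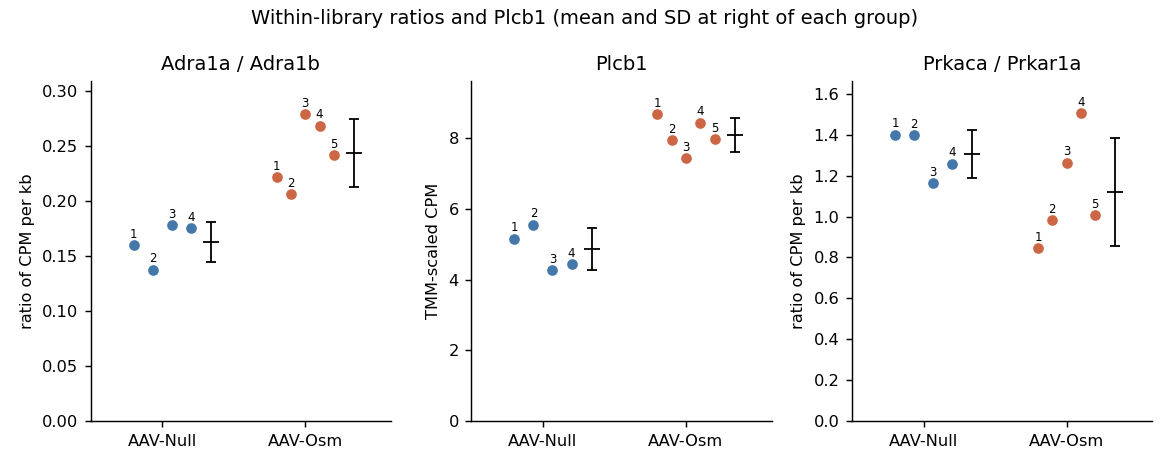
Ratio of Adra1a to Adra1b (left), Plcb1 in TMM-scaled CPM (middle) and ratio of Prkaca to Prkar1a (right) in each library, with the mean and SD in black; ratios are of CPM per kilobase. The groups are separate in the left and middle panels and overlap in the right panel, where AAV-Osm libraries spread from 0.845 to 1.51.

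Gnas encodes the stimulatory alpha subunit that links the beta receptor to adenylyl cyclase. It lies on chromosome 2 (174284320 to 174346742, plus strand) in an imprinted locus with several start sites. It was at 1061, 1050, 922 and 1082 CPM in AAV-Null 1 to 4 and at 811, 961, 1005, 1161 and 1053 CPM in AAV-Osm 1 to 5. AAV-Osm libraries held both the lowest and the highest value (log2 fold change -0.04, SE 0.14, 95% interval -0.34 to 0.25, edgeR adjusted p = 0.987). In GENCODE vM21, 18.0% of the counted exon bases are shared with Gm20721 and 12.1% with Nespas, both on the other strand. The strand setting of the counting is not given in the sources used here, so reads of these genes may be included. Of 10 alpha subunit genes tested, 0 passed and 8 had a negative log2 fold change. Gnai2, an inhibitory subunit gene and the most abundant of these per length, had one of -0.19 (SE 0.19).

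Adcy5 and Adcy6 encode the main cyclases of heart muscle cells, both inhibited by calcium. Adcy5 (chromosome 16, 35155636 to 35304549, plus strand) was at 58.2, 62.1, 71.2 and 71.6 CPM in AAV-Null 1 to 4 and at 58.2, 75.8, 85.3, 61.5 and 52.7 CPM in AAV-Osm 1 to 5. Adcy6 (chromosome 15, 98589986 to 98607633, minus strand) was at 202, 187, 198 and 199 CPM in AAV-Null 1 to 4 and at 202, 243, 266, 203 and 151 CPM in AAV-Osm 1 to 5. For both genes AAV-Osm 3 was the highest library and AAV-Osm 5 the lowest. The log2 fold changes were 0.02 for Adcy5 (SE 0.16, 95% interval -0.32 to 0.36, edgeR adjusted p = 0.998) and 0.12 for Adcy6 (SE 0.16, 95% interval -0.23 to 0.46, edgeR adjusted p = 0.972). The spread of Adcy6 was 3.33% of its mean in AAV-Null and 20.7% in AAV-Osm libraries. Of the 9 genes, 8 had a larger relative spread in AAV-Osm, as did 58.5% of all genes. The cardiomyocyte marker sum was 89614, 116886, 112368, 105125 and 89278 CPM in AAV-Osm 1 to 5. In AAV-Null libraries it ran from 87696 to 111244 CPM. Its part in the spread of the cyclases was not tested. Across the 9 libraries Adcy5 and Adcy6 had a Pearson r of 0.84 (exact permutation p = 0.00344) and a Spearman rho of 0.53 (exact p = 0.148). Without the 2 libraries farthest from the median of Adcy5, r was 0.58, so the relation rested in part on those libraries. The adjusted p over 36 pairs of genes was 0.124, and 0 of the 36 pairs passed. Of the 36 pairs, 6 had an exact unadjusted p under 0.05. The others were Gnas with Prkaca (r of 0.76), Adrb1 with Adcy5 (0.70), and Prkar1a with Adcy5 (-0.72), Adcy6 (-0.72) and Adrb1 (-0.65). For Adrb1 with Prkar1a the Spearman rho was -0.90 (exact unadjusted p = 0.00203).

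The other 6 cyclases tested were lower per length. Of all 8 cyclase genes tested, Adcy5 and Adcy6 included, 0 were called in either direction, with a median log2 fold change of 0.10. Adcy4 averaged 29.8 ± 4.45 and 29.5 ± 6.30 CPM in AAV-Null and AAV-Osm, and Adcy9 20.4 ± 2.54 and 22.7 ± 1.34 CPM. Adcy1, Adcy3 and Adcy7 were between 2.39 and 6.94 CPM in each library. Adcy8, a calcium-stimulated cyclase, averaged 0.481 ± 0.178 and 0.674 ± 0.331 CPM, and its interval of -0.39 to 1.42 was too wide to tell a change from none. No 75-base stretch of the annotated transcripts of Adcy5, Adrb1, Adra1a, Adra1b, Prkaca or Prkar1a occurred in a transcript of another gene. For Adcy6, 6.64% of such stretches were shared with its antisense gene Gm29331, and for Pde3a 5.27% with Gm28523.

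Prkaca encodes the main catalytic subunit of protein kinase A (chromosome 8, 83972978 to 83996442, plus strand), and Prkar1a a regulatory subunit that holds it inactive (chromosome 11, 109650949 to 109669648, plus strand). Prkaca was at 336, 341, 272 and 245 CPM in AAV-Null 1 to 4 and at 202, 233, 259, 337 and 331 CPM in AAV-Osm 1 to 5. AAV-Osm 4 and 5 were near AAV-Null 1 and 2, and AAV-Osm 1 was the lowest of all. Prkar1a was at 318, 323, 310 and 259 CPM in AAV-Null 1 to 4 and at 318, 314, 272, 297 and 436 CPM in AAV-Osm 1 to 5. AAV-Osm 5 stood alone at the top. Neither gene passed, with log2 fold changes of -0.13 for Prkaca (SE 0.18, 95% interval -0.51 to 0.25, edgeR adjusted p = 0.970) and 0.11 for Prkar1a (SE 0.15, 95% interval -0.22 to 0.45, edgeR adjusted p = 0.970). Without AAV-Osm 5 the log2 fold change of Prkar1a was -0.0052. The ratio of Prkaca to Prkar1a per length was 1.31 ± 0.116 in AAV-Null (SD, n = 4) and 1.12 ± 0.263 in AAV-Osm (SD, n = 5), with 3 AAV-Osm libraries below and 1 above all AAV-Null libraries (exact permutation p = 0.198, adjusted p = 0.714).

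Of 9 protein kinase A subunit and inhibitor genes, 0 passed and 5 had a positive log2 fold change. Prkacb, the other catalytic subunit gene, averaged 32.7 ± 5.24 CPM with AAV-Null and 33.5 ± 6.98 CPM with AAV-Osm. Prkar2a, the gene of a regulatory subunit that binds anchoring proteins, averaged 96.8 ± 8.59 and 101 ± 17.9 CPM, while Prkar1b and Prkar2b were at most at 2.75 CPM in any library. The kinase inhibitor genes Pkia and Pkig had log2 fold changes of 0.15 (SE 0.17) and -0.08 (SE 0.15).

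The cyclic AMP response element (CRE), the site of the factor CREB through which protein kinase A acts on transcription, was looked for in the promoters to show what these genes carry. RefSeq start sites (GRCm38.p6) matched 6 of the 9 genes with 16 windows of 250 bases before a start. The palindrome TGACGTCA was found in 1.55% of 32851 such windows of all genes and in 1 of the 16, a Prkar1a window, 49 to 42 bases before the start that the counted gene model uses. Its core TGACG, searched on both strands and also part of the palindrome, was in 17.8% of all windows and in 8 of the 16 windows, which partly overlap and belong to 4 of the 6 genes (Gnas, Prkaca, Prkar1a and Adrb1). Capitals mark the match, all 3 sequences are on the plus strand, and bases that GENCODE calls exonic were left off.
Prkar1a, chr11:109650860-109650920: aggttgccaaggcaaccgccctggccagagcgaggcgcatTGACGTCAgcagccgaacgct
Prkaca, chr8:83972818-83972902: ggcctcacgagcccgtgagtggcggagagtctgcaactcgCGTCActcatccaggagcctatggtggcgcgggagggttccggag
Adrb1, chr19:56721987-56722071: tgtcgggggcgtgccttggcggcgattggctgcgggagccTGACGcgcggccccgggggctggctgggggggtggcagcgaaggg
The D-box TTANGTAA, the element bound by the clock factor Dbp, was in 2.06% of all windows and in 0 of the 16, and the E-box CACGTG was in 6.02% of all windows and in 2 of the 16. A match is a description of letters only, and none of the genes shown passed the test.

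Pde3a encodes a phosphodiesterase that cyclic GMP inhibits and that acts near the sarcoplasmic reticulum (chromosome 6, 141249269 to 141499351, plus strand). It was at 9.68, 8.28, 7.46 and 5.97 CPM in AAV-Null 1 to 4 and at 7.77, 8.23, 8.40, 12.5 and 5.94 CPM in AAV-Osm 1 to 5. AAV-Osm held both extremes, and without AAV-Osm 4 the log2 fold change was -0.05 in place of 0.12 (SE 0.22, 95% interval -0.35 to 0.58, edgeR adjusted p = 0.979). In GENCODE vM21 17.6% of its counted exon bases lie under the antisense gene Gm28523. The phosphodiesterase list had 19 tested genes, of which 0 passed, 10 had a positive and 9 a negative log2 fold change. Among the positive ones was Pde4dip, which encodes a protein that binds a phosphodiesterase and is not itself such an enzyme. Pde4a was the most abundant of the Pde3 and Pde4 genes per length, with 84.4 ± 6.93 CPM under AAV-Null and 86.4 ± 10.5 CPM under AAV-Osm. Pde3b, Pde4b and Pde4c had log2 fold changes of -0.39 (SE 0.24), -0.25 (SE 0.16) and -0.40 (SE 0.21), and Pde4d one of 0.29 (SE 0.15). The smallest p-values of the list were those of Pde1b and Pde7b, with log2 fold changes of 0.55 (SE 0.22) and 0.65 (SE 0.28) and edgeR adjusted p-values of 0.762 and 0.796.

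The wider pathway was read from 17 lists with 197 tested genes. Of these 2 rose, 0 fell and 195 did not pass. Both that rose, Dbp and Ciart, were in a list of clock genes kept because the labels give no time of day at collection; without that list 0 of 179 passed, with a median log2 fold change of 0.02. At an unadjusted p under 0.05 there were 14 of those 179 (7.82%), 9 higher and 5 lower, near the 5.97% of all genes. On the log2 scale Dbp, a clock output factor, rose by 1.47 (edgeR adjusted p = 0.0369) and Ciart, a clock repressor, by 1.76 (edgeR adjusted p = 0.0349). The clock list was chosen with earlier results of these data known, so its share of small p-values is a description and not a test. Of the 19 clock genes, 10 had an unadjusted p under 0.05 in edgeR (52.6%, against 5.97% of all genes), 8 of them higher and 2 lower. The lower pair was Arntl, the gene of the core activator BMAL1, and Nfil3, a repressor of D-box genes named after its values were seen. Arntl was at 4.70 to 10.3 CPM under AAV-Null and 2.15 to 4.23 CPM under AAV-Osm (log2 fold change -1.19, SE 0.25, edgeR adjusted p = 0.186), and Nfil3 at 12.9 to 22.7 and 7.45 to 11.7 CPM, a difference of -0.90 on the log2 scale (edgeR adjusted p = 0.199, SE 0.19). For neither gene did the groups overlap, a separation that 1.23% of all genes showed in this direction. DESeq2 and limma-voom with quality weights, which called 0.387% and 1.29% of all genes, called both as lower. Leaving out AAV-Null 1, 2 or 3 (or 4, or 3 with 4), or AAV-Osm 1 or 2, or scaling by total counts, ended the call of Ciart. Leaving out AAV-Null 1, 2 or 3, or AAV-Osm 1, 2, 3 or 5, each on its own, ended the call of Dbp. Dbp stayed called with AAV-Null 3 and 4 both left out, and with AAV-Null 4 and AAV-Osm 5 both left out.

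Desensitisation of receptors was not measured, and only transcripts of the receptor kinase and arrestin genes were read. Of these 7 genes 0 passed, and Adrbk1, the gene of the kinase GRK2 that phosphorylates active beta receptors, averaged 69.6 ± 2.96 and 68.6 ± 3.38 CPM in AAV-Null and AAV-Osm (log2 fold change -0.02, 95% interval -0.26 to 0.22). Of 14 regulators of G protein signalling 0 passed. Rgs2, a gene whose product limits Gq signalling, was at 12.7, 14.5, 37.9 and 26.4 CPM in AAV-Null 1 to 4 and at 44.7, 37.1, 32.4, 32.2 and 36.0 CPM in AAV-Osm 1 to 5 (log2 fold change 0.67, SE 0.27, edgeR adjusted p = 0.773). AAV-Null 3 lay within the AAV-Osm range. Without AAV-Null 3 and 4, the libraries with most liver-type RNA, the log2 fold change was 1.42 and passed (edgeR adjusted p = 0.0170), but that left 2 AAV-Null libraries, the most alike pair. It also passed in limma-voom with quality weights (log2 fold change 1.19, adjusted p = 0.0228), and in the other 18 alternatives it did not pass (adjusted p of 0.327 or more). Rgs17 differed by -0.81 on the log2 scale (edgeR adjusted p = 0.518, SE 0.24), at 3.69 ± 1.05 and 2.09 ± 0.413 CPM. Among 11 beta and gamma subunit genes 0 passed, with Gng11 at -0.51 (SE 0.19) and Gnb3 at 0.50 (SE 0.20).

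Of 13 protein kinase A substrates of cardiomyocytes 0 passed. Lipe, hormone-sensitive lipase, was the substrate gene with the smallest p, at 35.6 ± 3.24 and 48.3 ± 3.88 CPM in AAV-Null and AAV-Osm with no overlap (log2 fold change 0.44, SE 0.12, edgeR adjusted p = 0.483). Such a separation, with AAV-Osm higher, was shown by 1.05% of all genes. None of the 18 genes of cyclic AMP responsive transcription passed. Per1, which is also a clock gene, averaged 18.8 ± 1.25 and 28.7 ± 2.83 CPM with no overlap (log2 fold change 0.61, SE 0.13, edgeR adjusted p = 0.171), and it passed in DESeq2 (adjusted p = 0.00123) and with quality weights (adjusted p = 0.0140), while other alternatives gave up to 0.519. In the same libraries Dbp ran from 26.1 to 62.7 CPM under AAV-Null and from 80.9 to 151 CPM under AAV-Osm, and its part in the values of Per1, Plcb1 and Adra1a was not tested. Of the exon bases counted for Dbp 32.1% lie under Sphk2 on the other strand. Anchoring proteins (0 of 14), other cyclic AMP effectors (0 of 8) and phosphatase subunits and inhibitors (0 of 13) gave no call. Akap12, which encodes an anchoring protein, differed by -0.42 on the log2 scale (SE 0.15), Popdc2, whose product binds cyclic AMP, by -0.04 (SE 0.13), and the phosphatase gene Ppp1ca by -0.08 (SE 0.13).

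A list of other receptors that act on cyclase, with the ligand gene Apln among them, gave 0 calls of 10 tested. Adora2a, the gene of the A2A adenosine receptor, which raises cyclic AMP, ran from 9.27 to 13.2 CPM under AAV-Null and from 6.06 to 8.27 CPM under AAV-Osm, a separation that 1.23% of all genes showed in this direction. Its log2 fold change was -0.66 (SE 0.16, edgeR adjusted p = 0.364). It passed in DESeq2 (adjusted p = 0.0412) and with quality weights in limma-voom (adjusted p = 0.0250), while other alternatives gave up to 0.758. Apln, which encodes apelin, had a log2 fold change of -0.46 (SE 0.17). Of 7 genes of catecholamine synthesis, uptake and breakdown 0 passed, with a median log2 fold change of 0.15. Th and Slc6a2, markers of sympathetic nerve endings, were not analysed here.

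**Figure D5:**
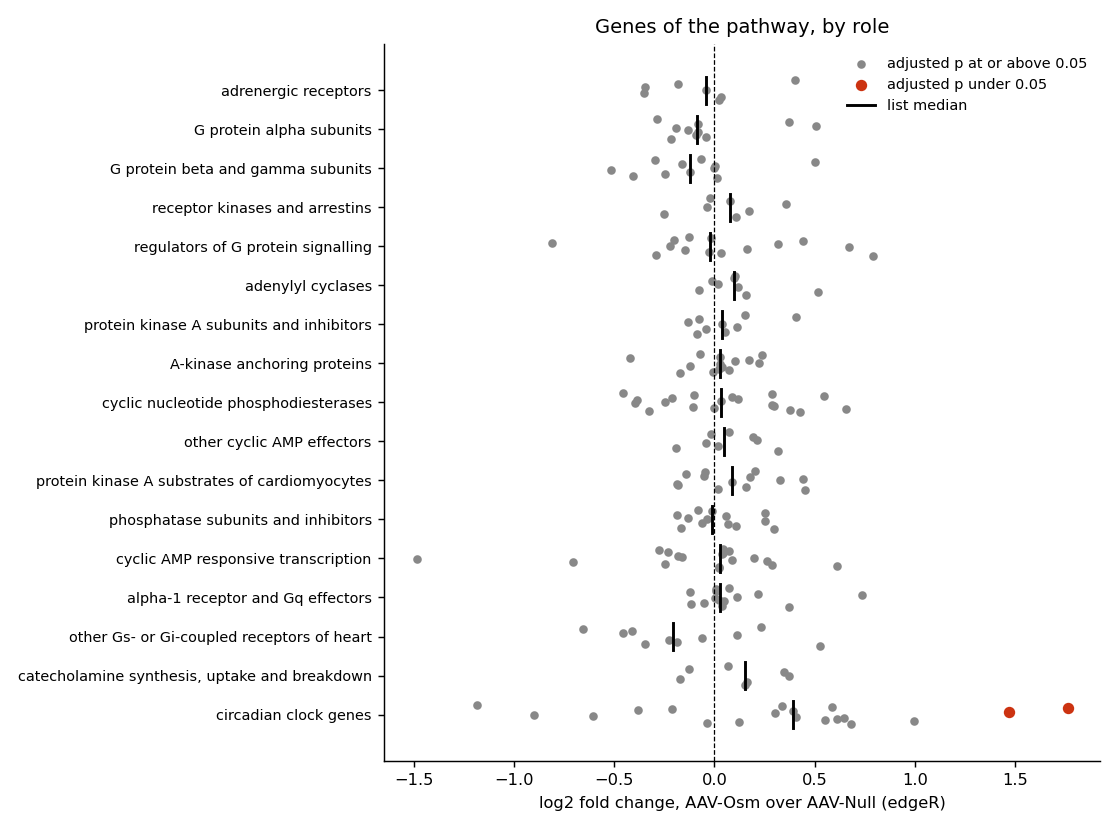
Log2 fold change (edgeR) of each tested gene in the 17 lists of the pathway, 1 point a gene, with the list's median as a black bar and genes past the adjusted threshold in red. The points in red are Dbp and Ciart in the clock list; medians of the other lists lie between -0.21 and 0.15.

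The sums of 12 marker lists of cell types were compared by the exact two-sided permutation test. After adjustment 0 of the 12 passed, but a single list at the smallest p this design allows, 0.00794, could not pass that adjustment, so the ranges carry the comparison. The epicardial and mesothelial sum had the smallest p, with 4 AAV-Osm libraries below every AAV-Null library, at 44.8 to 136 CPM under AAV-Null and 9.97 to 46.7 CPM under AAV-Osm (exact p = 0.0159, adjusted p = 0.190). The cardiomyocyte sum had an exact p of 0.468, the endothelial sum 0.143, the smooth muscle and pericyte sum 0.532 and the fibroblast sum 0.349. The macrophage, adipocyte, atrial, skeletal muscle, liver-type, red blood cell, and neuron and Schwann cell sums had exact p-values of 0.611, 0.381, 0.476, 0.532, 0.317, 0.984 and 0.333. Of the adipocyte markers 2 of 8 were in the table, and of the neuron and Schwann cell markers 4 of 8. Of the atrial, skeletal muscle and red blood cell markers there were 4 of 5, 5 of 8 and 3 of 7. Most of the adipocyte, atrial, skeletal muscle and red blood cell sums in each library came from Fabp4, Nppa, Ckm and Alas2, in that order. The p-values of those sums are thus largely those of single genes.

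The genes whose levels followed a receptor or phosphodiesterase gene most closely over the 9 libraries are given as a description. For Adrb1 these were Cdpf1, Mrpl37 and Vps25 (Pearson r of 0.974, 0.970 and 0.968 on log2 CPM). For Adra1a they were Alpk2, 9130011E15Rik and Zfp820 (0.943, 0.909 and 0.907), and for Pde3a Rufy2, Rad54l2 and Itpr1 (0.909, 0.901 and 0.892). Within the groups, the r of Adra1a with Zfp820 was 0.731. They are the 3 highest over all genes for each, from only 9 points that share depth and group, and none of these genes passed the test between the groups.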

How the data were processed

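Poly(A)-enriched RNA of 9 heart apex samples was read as 75 base paired ends, per the labels' protocols. The tools of the authors, per the submitters' processing notes, were STAR 2.5.2b, Subread 1.5.1 and featureCounts, with build mm10. Not given in the sources used here were annotation, strand setting and handling of multi-mapping reads. The authors deposited whole-number counts, not normalized, for 13192 named genes, all over 0.5 CPM in at least 4 libraries; 4141 blank lines were left out, and rarer genes were not analysed here. The deposited table also gives a gene length in bases, another kind of value, used for levels per length.

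Groups came from the treatment label, 4 AAV-Null and 5 AAV-Osm. Counts were tested with edgeR 4.0.16 (R 4.3.3): TMM scaling, filterByExpr (0 genes removed), robust quasi-likelihood F test, two-sided, vector as the only term, Benjamini-Hochberg adjustment over all genes, threshold 0.05. Intervals are 95% intervals from the fit's t distribution. CPM are TMM-scaled and given with SD. DESeq2 1.42.0 and limma 3.58.1 were alternatives. Marker sums and ratios were tested by exact two-sided permutation over 126 regroupings. The fit was also run on counts simulated with its own estimates of spread, and no result here rests on that run. Named were the 9 genes, their family members, the genes past the threshold and up to 2 with the smallest p per list (else the most abundant), and the genes most like Adrb1, Adra1a and Pde3a. The genes and lists were chosen with earlier results of these data known; the ratios were added after the values were seen. Some listed genes count in the totals but are not reported here.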

Additional observations from a re-analysis of the deposited data

Results flagged for a closer look

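A library was set apart where its gap to the nearest other library of its group, as a share of the group's range, passed Dixon's 95% critical value. This was asked of 82 sets of values and held for 6, where chance gives about 1 in 20. Among the 9 genes it held for Prkar1a in AAV-Osm 5, at 436 CPM with the other AAV-Osm libraries at 272 to 318 CPM. Popdc2 was at 751 CPM in AAV-Null 3 and at 666 to 677 CPM in the other AAV-Null libraries. The other 4 were marker sums of AAV-Null 4: skeletal muscle markers at 6469 CPM (others 5008 to 5159), red blood cell markers at 224 CPM (others 116 to 131), neuron and Schwann cell markers at 25.9 CPM (others 17.3 to 17.7) and epicardial and mesothelial markers at 136 CPM (others 44.8 to 54.4). In AAV-Null 4 the skeletal muscle sum was mostly Ckm at 6272 CPM, with Acta1 at 192 CPM. Tnnt3, Tnni2 and Mylpf were at 0.929, 2.64 and 1.81 CPM there, so that sum does not show skeletal muscle in the library. Without AAV-Null 4 the count of the 9 genes past the threshold was 0, as with all libraries.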

How the results depend on the processing

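No paired analysis was possible because the labels pair no AAV-Null library with an AAV-Osm library. The count of the 9 genes past the threshold was 0 under all 20 alternatives. For the marker lists the design is too small for a count of 0 to show stability. The count of changed genes, 16, was 51 with DESeq2, 170 by limma-voom with quality weights and 4 to 11 with each library left out. By limma-voom with quality weights 3326 genes had an unadjusted p under 0.05, against 788 in the main edgeR fit. The count of pathway genes was 2, both of the clock list. It was 1 with total counts only, 7 with DESeq2, 9 by limma-voom with quality weights and 0 to 2 with each library left out. Clock genes were most of those called by DESeq2 and with quality weights. Adora2a and Plcb1, outside the clock list, were called by both. The log2 fold changes of Adra1a, Adra1b, Adcy6 and Prkaca kept their sign throughout (0.32 to 0.45, -0.27 to -0.12, 0.02 to 0.22 and -0.35 to -0.04). Others near 0 turned. With quality weights Prkar1a was at -0.025, Pde3a -0.025, Popdc2 0.033, Ppp1ca 0.048 and Adrbk1 0.0018. Adcy5 was at -0.020 with total counts. Without AAV-Null 3 and 4 Pde3a was at -0.077, Popdc2 0.0057, Ppp1ca 0.090 and Adrbk1 0.028. Without AAV-Null 4 and AAV-Osm 5 Prkar1a was at -0.079 and Ppp1ca 0.017. With each library left out the ranges were -0.032 to 0.094 for Adrb1, -0.085 to 0.099 for Adcy5, -0.10 to 0.024 for Gnas, -0.0052 to 0.17 for Prkar1a, -0.051 to 0.23 for Pde3a, -0.097 to 0.017 for Popdc2 and -0.044 to 0.0037 for Adrbk1. The cause was not tested. Adra1a over Adra1b differed by 0.50 to 0.64 with each library left out. Adra2b, Adra2c and Adcy8, the lowest of the genes named, are limited by depth.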
